A study of Homo sapiens with 19 samples.

Results

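The trophoblast and amnion markers analysed were 10 genes, CDX2, GATA3, TFAP2A, TFAP2B, TFAP2C, ELF5, VGLL1, TP63, CGA and KRT7, taken by their symbols from the 33382 genes listed in each of 19 RNA-seq samples. Trophoblast is the outer lineage of the blastocyst that forms the placenta, and the amnion is the thin epithelium that lines the sac around the embryo. Both are non-neural epithelia, and human embryonic stem cells (hESCs) exposed to BMP signals are known to turn on many genes that the 2 tissues share. GATA3, TFAP2A and TFAP2C are transcription factors of early trophectoderm, and CDX2, ELF5, VGLL1 and TP63 are regulators used to recognise trophectoderm or the cytotrophoblast, the progenitor layer of the placenta. CGA encodes the common alpha subunit of chorionic gonadotropin and the pituitary glycoprotein hormones, KRT7 a keratin of simple epithelia, and TFAP2B an AP-2 factor of neural crest, kidney and surface ectoderm. Several are also used by other tissues, CDX2 by the hindgut and TP63 by stratified epithelia, so none of the 10 marks 1 cell type by itself.

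The samples came from H1, an established hESC line, in which components of Polycomb repressive complex 2 (PRC2) had been deleted. PRC2 places trimethylation on lysine 27 of histone H3 (H3K27me3), a mark of repressed developmental genes. Wild-type (WT) H1 cells and the EZH1-/-, EZH2-/-, EED-/-, SUZ12-/- and EZH2-/-/EZH1-/- H1 lines had 2 samples each. An H1-EED-/-/EED-OE line, which lacks endogenous EED and carries a doxycycline (DOX) inducible lentiviral EED transgene, had 1 sample kept on DOX, whose title also carries D28, and 6 samples without it, 1 per time point of 8, 12, 16, 20, 24 and 28 days of withdrawal. Per the study, H3K27me3 was lost in EED-/-, SUZ12-/- and EZH2-/-/EZH1-/- H1 cells, called the 3 PRC2-null lines here, and kept at a lower level in EZH1-/- and EZH2-/- H1 cells, called with WT H1 the 3 retaining lines. All were grown without feeders in a defined medium for pluripotent cells. The labels give the 2 samples of a knockout line different clone or passage names and do not say that the samples came from separate cultures, so p-values measure only the spread between these samples, which may be technical.

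Values are TPM, a share of transcripts corrected for their length, that sums to between 999999.2 and 1000001.0 in every sample. The read depth behind them is unknown, and a gene at 0 is only listed at 0. The knockouts removed 1 functional domain of each gene, and the TPM of a whole gene, which counts RNA outside the deleted part, was not low in its own knockout (EED 14.25 and 22.36 TPM in EED-/- H1 against 17.3 and 21.96 in WT H1), so it does not check the labels. EED stood at 108.54 TPM with DOX and at 12.64 to 31.56 TPM after withdrawal. In these bulk samples, fewer cells of a type and less RNA per cell cannot be told apart.

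The 250 bases before the RefSeq start site of 4 markers show how different the promoters of these genes are. RefSeq promoter windows on GRCh38.p14, of 300 bases with 250 before and 50 after the start, were matched for 8 of the 10 genes and gave 14 windows (6 for GATA3, 2 for TFAP2A), while TFAP2C and KRT7 were not matched. CDX2, TFAP2A and VGLL1 are printed with every CG dinucleotide in capitals, since CG-rich stretches are where PRC2 is known to bind in stem cells, and CGA with the cAMP response element TGACGTCA in capitals.
CDX2 chr13:27969316-27969565 (minus strand): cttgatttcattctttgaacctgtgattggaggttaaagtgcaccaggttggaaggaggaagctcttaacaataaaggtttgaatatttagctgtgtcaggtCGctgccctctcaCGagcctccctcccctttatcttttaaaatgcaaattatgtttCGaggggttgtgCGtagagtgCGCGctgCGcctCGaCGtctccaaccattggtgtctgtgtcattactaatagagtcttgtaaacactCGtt
TFAP2A chr6:10419660-10419909 (minus strand): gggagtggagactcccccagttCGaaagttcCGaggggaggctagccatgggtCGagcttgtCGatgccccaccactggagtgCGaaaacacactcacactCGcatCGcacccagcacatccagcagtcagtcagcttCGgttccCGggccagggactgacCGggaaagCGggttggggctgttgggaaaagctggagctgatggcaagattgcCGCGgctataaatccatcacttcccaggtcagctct
VGLL1 chrX:136531965-136532214 (plus strand): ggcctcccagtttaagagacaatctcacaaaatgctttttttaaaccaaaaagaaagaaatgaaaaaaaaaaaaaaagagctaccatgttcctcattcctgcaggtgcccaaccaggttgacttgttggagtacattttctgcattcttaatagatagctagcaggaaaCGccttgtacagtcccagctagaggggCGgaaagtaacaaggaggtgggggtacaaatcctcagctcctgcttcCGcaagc
CGA chr6:87095107-87095356 (minus strand): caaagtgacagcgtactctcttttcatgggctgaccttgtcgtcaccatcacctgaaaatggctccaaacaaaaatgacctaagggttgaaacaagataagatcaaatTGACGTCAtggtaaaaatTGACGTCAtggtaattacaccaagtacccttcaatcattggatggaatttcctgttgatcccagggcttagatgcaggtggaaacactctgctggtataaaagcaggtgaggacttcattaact

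The median number of CG dinucleotides was 14 over 35116 RefSeq promoter windows of the same 300-base length, with quartiles at 4 and 28. CDX2 had 16 and both TFAP2A windows 18, near the middle of that range. The 6 GATA3 windows ran from 5 to 36. VGLL1 had 3, ELF5 2, TFAP2B 5, CGA 6 and TP63 7, all under the median. The 4 members listed at 0 in both WT H1 samples, TFAP2B, ELF5, VGLL1 and CGA, were among those with the fewest. CDX2, with 16, was also listed at 0 in 1 WT H1 sample and in both EZH2-/- samples. A link between CG number and level was not tested. The CGA window held 2 matches of TGACGTCA, a motif with the same letters on both strands, which 1.848% of all windows hold at least once and 21 windows (0.06%) hold at least 2 times. CDX2 held 3 matches of the AP-2 consensus GCCNNNGGC, also searched on both strands, where 5.24% of windows hold 2 or more and 23.197% at least 1, and 3 of the 6 GATA3 windows held 1. The core motif of the GATA factors, AGATAA, searched on both strands and found in 10.331% of windows, had 1 match each in CDX2 and CGA. The TEAD core GGAATG, searched on both strands and found in 14.033% of windows, had 1 match in VGLL1, which encodes a cofactor of TEAD factors, and 1 in a GATA3 window. These matches describe letters in a window and not binding.

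Members were low or listed at 0 in the retaining lines, with TFAP2C and KRT7 as the exceptions, and most were higher in the PRC2-null lines. In limma on log2(TPM + 1) with a mean per line, 7 of the 10 rose in the 3 PRC2-null lines against the 3 retaining lines with a p adjusted by Benjamini-Hochberg over 19100 genes of 1% or less and a difference of at least 1.585 on that scale, which is 3-fold. Of all genes tested, 13.5% rose by the same rule. CDX2, GATA3, TFAP2A, VGLL1, TP63, CGA and KRT7 rose, TFAP2B and ELF5 were below the 3-fold limit and TFAP2C did not pass the test. With a pseudocount of 0.1 in place of 1, TFAP2B and ELF5 were called too and the count was 9. Calls over all genes grew as well, to 5593 in either direction with 0.1 from 3551 with 1. All 6 PRC2-null samples lay above all 6 retaining samples for 8 of the 10, the exceptions being TFAP2C and ELF5, against 24.2% of all genes tested. All 10 passed the filter of 1 TPM in 2 of 12 samples, but 8 did so through PRC2-null samples, being under 1 TPM in every retaining sample, so for these 8 the filter itself asked for a difference. The median difference of the 10 was 2.62, beside 0.29 over all genes tested. A scaling by median ratios moved the median of all genes by -0.23 in this comparison and by -0.31, -0.15 and -0.13 for EED-/-, SUZ12-/- and EZH2-/-/EZH1-/- H1 against WT H1, and it changed none of the counts of called members.

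**Figure D1:**
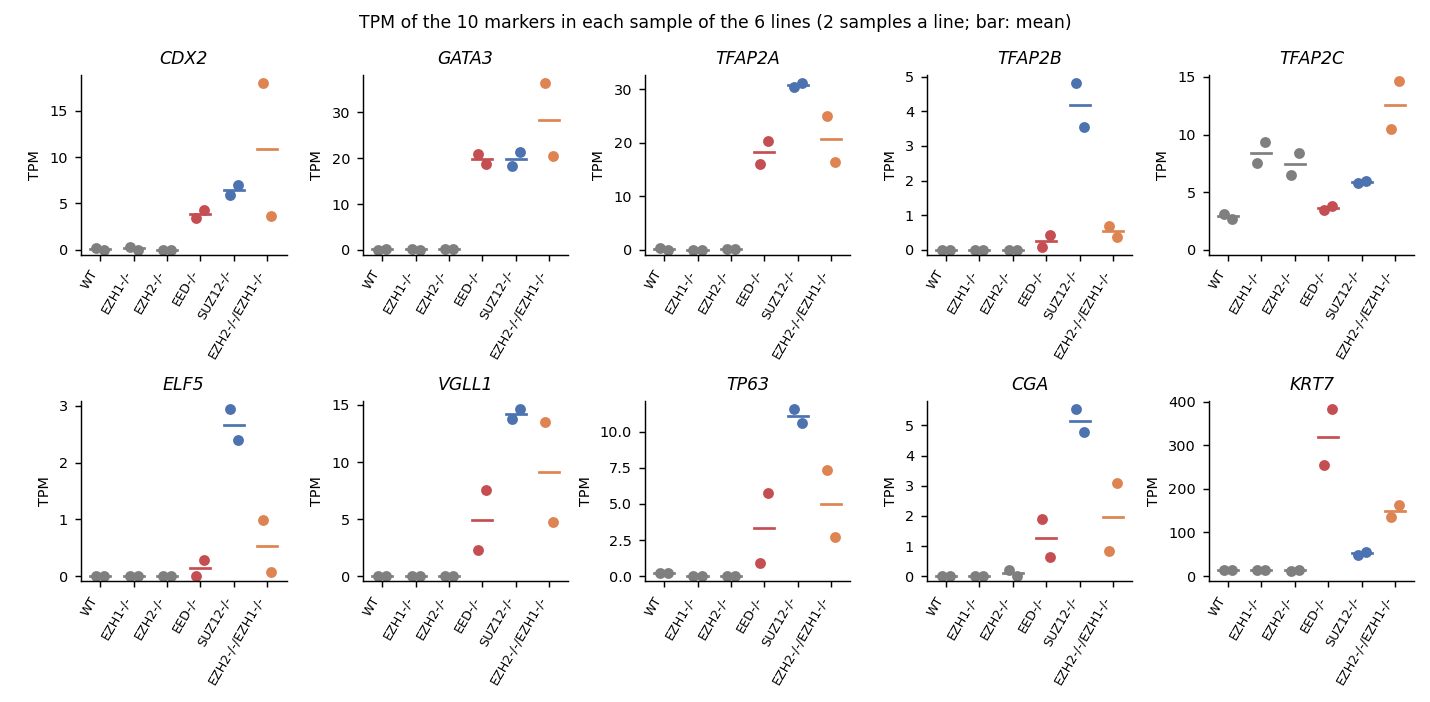
TPM (vertical axis, linear, a scale per gene) of the 10 markers in each of the 12 samples of the 6 lines on the horizontal axis, with points for the 2 samples and a bar for their mean. Grey points are the retaining lines, near 0 for 8 genes, and KRT7 is highest in EED-/- H1 while TFAP2B, ELF5, VGLL1, TP63 and CGA are highest in SUZ12-/- H1.

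GATA3 (ENSG00000107485, chr10:8045378-8075198, plus strand, GENCODE release 44 on GRCh38), which encodes a zinc finger factor of trophectoderm, was at 0.07 and 0.22 TPM in WT H1, 0.17 and 0.05 in EZH1-/- H1 and 0.17 and 0.17 in EZH2-/- H1. It stood at 20.85 and 18.83 TPM in EED-/- H1, 18.31 and 21.43 in SUZ12-/- H1 and 36.43 and 20.37 in EZH2-/-/EZH1-/- H1. The groups did not overlap, and the 3 PRC2-null lines stood at much the same level apart from 1 higher EZH2-/-/EZH1-/- sample. The difference was 4.34 on the log2 scale (SE 0.17, adjusted p = 7.543e-09). An antisense gene at the same locus, GATA3-AS1, was at 0.95 to 2.72 TPM in the PRC2-null samples and at most 0.07 in the retaining ones. The RNA kit does not mark strand, so reads from where the 2 genes overlap cannot be told apart.

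TFAP2A (ENSG00000137203, chr6:10393186-10419659, minus strand) encodes AP-2 alpha, a factor of trophoblast, surface ectoderm and neural crest. It was listed at 0 to 0.29 TPM in the retaining lines. It reached 16.08 and 20.42 TPM in EED-/- H1, 30.4 and 31.2 in SUZ12-/- H1 and 25 and 16.45 in EZH2-/-/EZH1-/- H1. No PRC2-null sample came near a retaining one, and the difference was 4.44 (SE 0.16, adjusted p = 4.836e-09), the largest of the 10 members on this scale. TFAP2A-AS1, its antisense neighbour, was listed at 0 in every retaining sample and at 0.32 to 1.06 TPM in the PRC2-null samples, with the same limit on strand.

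TFAP2C (ENSG00000087510, chr20:56629306-56639283, plus strand) encodes AP-2 gamma, which pluripotent cells and trophoblast both use. It was at 3.12 and 2.69 TPM in WT H1, 7.54 and 9.34 in EZH1-/- H1 and 6.53 and 8.38 in EZH2-/- H1. It was at 3.47 and 3.81 TPM in EED-/- H1, 5.81 and 5.99 in SUZ12-/- H1 and 10.45 and 14.61 in EZH2-/-/EZH1-/- H1. Its order thus followed the lines and not the 2 groups, with WT H1 and EED-/- H1 lowest and the EZH2-/-/EZH1-/- line highest. PRC2-null and retaining lines differed by 0.16 (95% interval -0.18 to 0.50, adjusted p = 0.3751), and the sign of that difference turned to -0.06 under median-ratio scaling and to -0.26 without the EZH2-/-/EZH1-/- line.

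TFAP2B (ENSG00000008196, chr6:50818723-50847619, plus strand), the AP-2 beta gene, was listed at 0 in all 6 retaining samples. It was at 0.09 and 0.42 TPM in EED-/- H1, 4.82 and 3.56 in SUZ12-/- H1 and 0.7 and 0.37 in EZH2-/-/EZH1-/- H1. Of the PRC2-null lines, SUZ12-/- H1 was the only one above 1 TPM. The difference of log2(TPM + 1) between PRC2-null and retaining lines was 1.10 (SE 0.14, adjusted p = 3.923e-05), under the 3-fold limit with a pseudocount of 1, and 3.23 (adjusted p = 4.255e-05), past it, with 0.1.

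CDX2 (ENSG00000165556, chr13:27960918-27969315, minus strand) encodes a caudal homeobox factor of trophectoderm and of the hindgut. It was at 0.2 and 0 TPM in WT H1, 0.28 and 0.03 in EZH1-/- H1 and 0 and 0 in EZH2-/- H1. It stood at 3.39 and 4.3 TPM in EED-/- H1, 5.9 and 7 in SUZ12-/- H1 and 18 and 3.7 in EZH2-/-/EZH1-/- H1. The 2 EZH2-/-/EZH1-/- samples lay further apart than any other pair, with 1 above and 1 below both SUZ12-/- samples. The difference was 2.69 (SE 0.29, adjusted p = 1.152e-05).

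ELF5 (ENSG00000135374, chr11:34478791-34525193, minus strand), an ETS factor of trophoblast progenitors and of mammary epithelium, was listed at 0 in all 6 retaining samples and in 1 of the 2 EED-/- samples, the other being at 0.28 TPM. It was at 2.94 and 2.39 TPM in SUZ12-/- H1 and at 0.98 and 0.07 in EZH2-/-/EZH1-/- H1. The SUZ12-/- samples were again the only ones above 1 TPM. The difference of 0.86 (SE 0.17, adjusted p = 0.0008748) was under the 3-fold limit, and with a pseudocount of 0.1 it was 2.61 (adjusted p = 0.001657) and past it.

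VGLL1 (ENSG00000102243, chrX:136532215-136556807, plus strand), a TEAD cofactor of cytotrophoblast, was also listed at 0 in all 6 retaining samples. It was at 2.28 and 7.56 TPM in EED-/- H1, 13.79 and 14.63 in SUZ12-/- H1 and 13.52 and 4.73 in EZH2-/-/EZH1-/- H1. The samples of SUZ12-/- H1 were alike, while those of each other PRC2-null line were spread widely. The difference was 3.17 (SE 0.27, adjusted p = 2.035e-06).

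TP63 (ENSG00000073282, chr3:189631389-189897276, plus strand) encodes p63, a p53 family factor of cytotrophoblast and of stratified epithelia. It was at 0.21 and 0.19 TPM in WT H1 and listed at 0 in the 4 EZH1-/- and EZH2-/- samples. It was at 0.9 and 5.79 TPM in EED-/- H1, 11.57 and 10.61 in SUZ12-/- H1 and 7.36 and 2.68 in EZH2-/-/EZH1-/- H1. The groups did not overlap and the difference was 2.55 (SE 0.30, adjusted p = 2.336e-05). The order of the 6 PRC2-null samples was that of VGLL1 except that the 2 SUZ12-/- samples changed places.

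CGA (ENSG00000135346, chr6:87085498-87095106, minus strand), the hormone subunit gene, was listed at 0 in 5 retaining samples and at 0.21 TPM in 1 EZH2-/- sample. It was at 1.9 and 0.65 TPM in EED-/- H1, 5.54 and 4.77 in SUZ12-/- H1 and 0.82 and 3.1 in EZH2-/-/EZH1-/- H1. SUZ12-/- H1 was again highest. The difference of 1.69 (SE 0.22, adjusted p = 4.828e-05) was just over the 3-fold limit and fell under it without the SUZ12-/- line (1.24), without EED-/- replicate 1 (1.55) and without EZH2-/-/EZH1-/- replicate 2 (1.49).

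KRT7 (ENSG00000135480, chr12:52232520-52252186, plus strand) was the most abundant member in every one of the 12 samples. It was at 13.56 and 12.98 TPM in WT H1, 14.17 and 14.76 in EZH1-/- H1 and 11.7 and 14.27 in EZH2-/- H1. It stood at 255.52 and 383.02 TPM in EED-/- H1, 48.9 and 55.03 in SUZ12-/- H1 and 135.67 and 162.08 in EZH2-/-/EZH1-/- H1. The 3 PRC2-null lines did not overlap one another, with means of 319 ± 90.2, 52.0 ± 4.33 and 149 ± 18.7 TPM (SD, n = 2 each) against 13.3 ± 0.41 in WT H1. The difference between PRC2-null and retaining lines was 3.22 (SE 0.13, adjusted p = 7.729e-09).

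Each knockout line was then compared with WT H1 in the same fit, to see which member rose in which line. The comparisons share the 2 WT H1 samples. In EED-/- H1, 5 members rose, CDX2, GATA3, TFAP2A, VGLL1 and KRT7, beside 16.2% of all genes tested. KRT7 had the largest difference there, 4.46 (SE 0.22, adjusted p = 2.296e-07), and TP63, with 1.58 (adjusted p = 0.02674), and CGA, with 1.13 (adjusted p = 0.02892), did not pass, although both were called with a pseudocount of 0.1 (adjusted p = 0.008595 and 0.003651). CDX2, at 2.14 (adjusted p = 0.004778), lost its call without the filter on low values (adjusted p = 0.01009), and the count fell to 3 without either WT H1 sample or without EED-/- replicate 2. VGLL1 was among the lost calls in each of those 3 cases (adjusted p = 0.0138, 0.01329 and 0.01554).

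In SUZ12-/- H1, 9 members rose and only TFAP2C did not (0.82, adjusted p = 0.02508), while 14.5% of all genes tested rose. TFAP2A differed by 4.81 (SE 0.28, adjusted p = 6.997e-07) and VGLL1 by 3.93 (SE 0.48, adjusted p = 7.118e-05). TFAP2B, at 2.37 (adjusted p = 2.063e-05), and ELF5, at 1.87 (adjusted p = 0.0003894), rose by this rule in no other line. Both genes passed the filter only through the SUZ12-/- samples, so for them the filter itself asked for a difference. KRT7 rose by 1.89 (SE 0.22, adjusted p = 5.795e-05). Without 1 SUZ12-/- sample TFAP2B and ELF5 reached 1 TPM in 1 sample only and were not tested, which left 7 members called without replicate 1 and 6 without replicate 2.

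In EZH2-/-/EZH1-/- H1, 7 members rose, CDX2, GATA3, TFAP2A, TFAP2C, VGLL1, TP63 and KRT7, beside 11.6% of all genes tested. TFAP2C rose by 1.78 (SE 0.26, adjusted p = 0.0003474), the one line in which this gene passed. CGA had a difference of 1.45 (adjusted p = 0.01035, and 0.002139 and called with a pseudocount of 0.1), TFAP2B 0.61 (adjusted p = 0.06128) and ELF5 0.54 (adjusted p = 0.1549). A fit of this line and WT H1 alone left 4 calls, GATA3, TFAP2A, VGLL1 and KRT7, and the share of all genes called in that fit is not given here. TP63 (2.21, adjusted p = 0.006028) also lost its call without filter (adjusted p = 0.01273) and without any 1 of the 2 WT H1, 2 EZH1-/- and 2 EZH2-/- samples or EZH2-/-/EZH1-/- replicate 1 (adjusted p from 0.01121 to 0.04112), and TFAP2C fell just under 3-fold without EZH2-/-/EZH1-/- replicate 2 (1.55).

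The lines that lack only EZH1 or only EZH2 had 0 members called by limma. Of all genes tested, 0.0995% were called in either direction in EZH1-/- H1 and 0% in EZH2-/- H1. At an unadjusted p under 0.05, a cut for which the share of all genes is not given here, there was 1 member in each, TFAP2C, higher by 1.27 in EZH1-/- H1 (SE 0.26, adjusted p = 0.05277) and by 1.11 in EZH2-/- H1 (SE 0.26, adjusted p = 0.3436). All 4 of these samples had more TFAP2C than both WT H1 samples. For GATA3, the interval of the difference from WT H1 was -0.70 to 0.62 in EZH1-/- H1 and -0.63 to 0.69 in EZH2-/- H1, and for KRT7 it was -0.38 to 0.61 and -0.53 to 0.46.

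**Figure D2:**
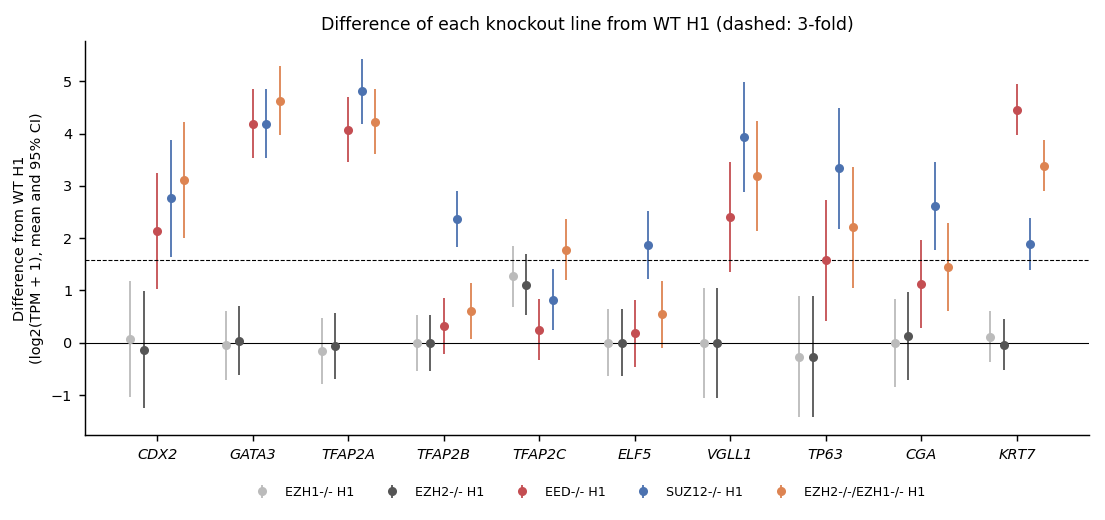
Difference of log2(TPM + 1) from WT H1 (vertical axis) for the 10 markers (horizontal axis) in each of the 5 knockout lines, with points for the limma estimate and bars for its 95% confidence interval, and a dashed line at 1.585 (3-fold). The EZH1-/- and EZH2-/- points lie near 0 except for TFAP2C, and the order of the 3 PRC2-null lines for KRT7 (4.46, 1.89 and 3.39) is unlike that for TFAP2B (0.32, 2.37 and 0.61).

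The PRC2-null lines were also compared with one another. SUZ12-/- and EED-/- H1 differed in 3 members, beside 6.12% of all genes tested in either direction. TFAP2B was higher in SUZ12-/- H1 by 2.05 (SE 0.24, adjusted p = 0.0002358) and ELF5 by 1.69 (SE 0.29, adjusted p = 0.002399), and KRT7 was lower by 2.57 on the log2 scale (log2 difference -2.57, SE 0.22, adjusted p = 3.423e-05). TFAP2B and ELF5 passed the filter only through the SUZ12-/- samples, so for them the filter itself asked for a difference. CGA (1.49, adjusted p = 0.01975), TP63 (1.75, adjusted p = 0.03948) and VGLL1 (1.52, adjusted p = 0.04671) had higher means in SUZ12-/- H1 without passing. GATA3 did not pass, with an interval of -0.66 to 0.66. Without either SUZ12-/- sample, TFAP2B and ELF5 were not tested and 1 call was left.

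SUZ12-/- and EZH2-/-/EZH1-/- H1 differed in 1 member, TFAP2B, which was higher in SUZ12-/- H1 by 1.76 (SE 0.24, adjusted p = 0.0008023), beside 4.46% of all genes tested. TFAP2B had passed the filter only through the SUZ12-/- samples, as had ELF5. KRT7 was lower in SUZ12-/- H1 at -1.50 (SE 0.22, adjusted p = 0.001286), short of 3-fold, and ELF5 was at 1.33 (adjusted p = 0.01177). The TFAP2B call was lost with a pseudocount of 0.1 and without either SUZ12-/- sample, where the gene was not tested. EZH2-/-/EZH1-/- and EED-/- H1 differed in 0 members, beside 0.089% of all genes tested. At an unadjusted p under 0.05 there were 2, TFAP2C at 1.53 (adjusted p = 0.03244) and KRT7 at -1.07 (adjusted p = 0.05666). The share of all genes at that unadjusted p is not given here.

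After DOX withdrawal the members appeared on different days. There was 1 sample a day and no test. GATA3 was at 0.22 TPM with DOX, at 1.37, 1.47 and 2.72 on days 8, 12 and 16, and at 61.43, 50.88 and 40.01 on days 20, 24 and 28. TFAP2A was at 0.11 TPM with DOX, at 3.68, 3.03 and 1.7 on days 8, 12 and 16, and at 23, 17.13 and 19.05 afterwards. CDX2 was at 0.06 TPM with DOX, at 0, 0.9 and 0.76 up to day 16 and at 34.24, 15.29 and 6.51 from day 20. These 3 factors thus had their highest value on day 20, and for CDX2 and GATA3 it was above that of any sample of the constitutive knockout lines. The same held for TFAP2C, at 25.72 TPM on day 20 and at most 14.61 TPM in those lines. The mesoderm genes T, MSGN1 and TBX6 were also highest on that day, at 185.95, 91.44 and 63.9 TPM, named after their values were seen. T was already at 124.59 TPM on day 16. Of the 12 genes of the posterior mesoderm and hindgut list, 8 were at least 3-fold higher than with DOX on day 20, with a median difference of 2.92, the highest of the lists on that day, beside 4 of the 10 members with a median of 0.86. Others of that list were highest on other days, among them FGF8 on day 16 (159.56 TPM), GATA5 on day 24 (4.18) and CDH2 on day 28 (422.93). The part of such cells in the day 20 values was not tested.

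VGLL1, TP63, CGA and ELF5, the cytotrophoblast regulators and the hormone subunit, came later. VGLL1 was listed at 0 with DOX and on days 8, 12 and 16, and was at 0.64, 5.45 and 5.58 TPM on days 20, 24 and 28. TP63 was at 0.05 TPM with DOX, listed at 0 on days 8, 12 and 16, and then at 0.35, 2.84 and 1.82 TPM. CGA was listed at 0 up to day 16 and was at 0.35, 6.07 and 0.72 TPM on the last 3 days. ELF5 was listed at 0 through day 20 and stood at 0.48 and 0.63 TPM on days 24 and 28, both under 1 TPM. The 4 genes were therefore low or at 0 on the day on which GATA3 and CDX2 peaked.

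TFAP2C and KRT7, which WT H1 cells already express, were up on day 8. TFAP2C was at 3.77 TPM with DOX, at 21.68, 15.78 and 10.07 on days 8, 12 and 16, and at 25.72, 8.89 and 4.67 on days 20, 24 and 28. KRT7 was at 13.75 TPM with DOX, at 45.69, 21.91, 8.04, 6.44 and 7.16 on days 8 to 24 and at 49.42 on day 28. KRT7 was thus below its DOX level on days 16, 20 and 24, which include the day 20 high of GATA3. TFAP2B was listed at 0 with DOX, at 0.16 and 0.12 TPM on days 8 and 12 and at 1.07, 1.01, 0.79 and 0.53 TPM on days 16 to 28.

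Counted as a difference of log2(TPM + 1) of at least 3-fold from the DOX sample, 3 members were higher on day 8 (TFAP2A, TFAP2C and KRT7), 2 on day 12, 1 on day 16, 4 on day 20, 6 on day 24 and 5 on day 28, and none was lower. Over 17245 genes the share that was 3-fold higher was 2.93%, 3.08%, 4.13%, 9.62%, 13.9% and 18.8% on these days. ELF5 and CGA, which did not reach 1 TPM in 2 of the 7 time course samples, were not among the 17245 genes, and without CGA the day 24 count was 5 of the 8 members compared. With a pseudocount of 0.1 in place of 1 the day 28 count was 9, and the share of all genes at that pseudocount is not given here.

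**Figure D3:**
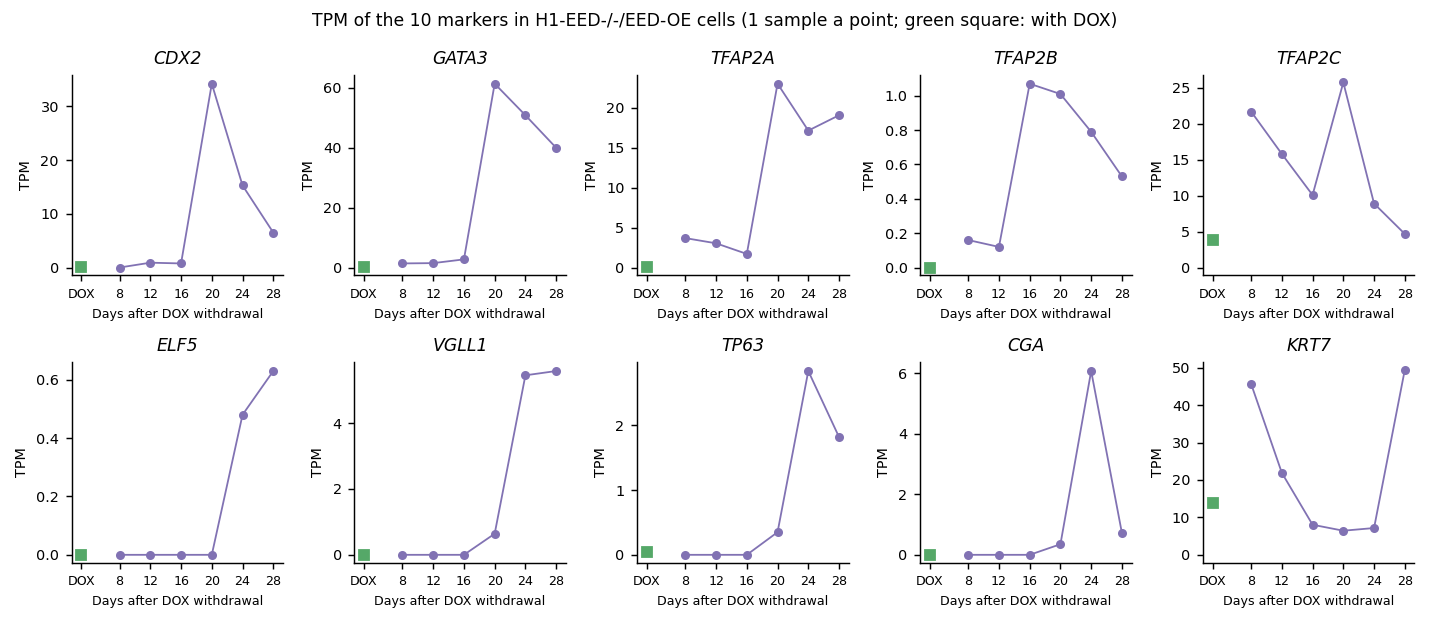
TPM (vertical axis, linear, a scale per gene) of the 10 markers in H1-EED-/-/EED-OE cells against days after DOX withdrawal (horizontal axis), with 1 sample a point and a green square for the sample with DOX, which is drawn left of day 8 and has no place on the day scale. GATA3, TFAP2A, CDX2 and TFAP2C are highest on day 20 at 61.43, 23, 34.24 and 25.72 TPM, and TFAP2C is also high on day 8. VGLL1 and TP63 are above 1 TPM on days 24 and 28 and CGA on day 24, and KRT7 is high on days 8 and 28.

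The other genes of the same tissues were read from lists of known markers, beside 13.5% of all genes tested that rose. These lists and those below were chosen with earlier results of these data known. List genes under 1 TPM in every retaining sample, such as NR2F2 and HAND1, passed the filter only through PRC2-null samples. For such genes the filter itself asked for a difference. Of 20 trophectoderm and cytotrophoblast genes, 14 rose in the PRC2-null lines against the retaining lines and 1, TEAD4, fell, and the median difference was 2.22. NR2F2, a nuclear receptor, went from 0 to 0.45 TPM in the retaining samples to 36.03 to 75.29 in the PRC2-null ones (5.66, adjusted p = 1.487e-09). HAND1, a helix-loop-helix factor of trophoblast and also of mesoderm, was listed at 0 in all retaining samples and was at 3.85 to 146.58 TPM in the PRC2-null ones (4.73, adjusted p = 1.405e-08). PAGE4 (4.19) and MSX2 (4.16) also rose, while TEAD3, DLX3, OVOL1, SPINT1 and ZNF750 were not called.

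Of 29 genes of syncytiotrophoblast, the fused hormone-secreting layer, and of placental hormones, 13 were high enough to be tested and, beside 13.5% of all genes tested, 3 rose. These were PAPPA, a secreted protease, at 7.86 to 63.87 TPM against 0.19 to 0.44 (4.35, adjusted p = 9.527e-07), KISS1 at 2.17 to 30.87 TPM against 0 to 1.03 (2.69, adjusted p = 3.625e-06) and HSD3B1, a steroid dehydrogenase, at 0.77 to 12.27 TPM against 0 to 0.1 (2.31, adjusted p = 1.059e-05). GCM1, the factor that drives syncytiotrophoblast formation, was at 0 to 0.32 TPM in the PRC2-null samples, and CGB1, PSG4, PSG5, PSG9 and LGALS16 were listed at 0 in all of them. The CGB, PSG and CSH genes are families of near-identical copies between which reads may be split, so their values are uncertain. CGB7, at 2.49 to 5.91 TPM against 0.31 to 2.77, was tested and not called. ERVW-1, at 1.6 to 3.12 TPM against 6.45 to 11.54 (-1.46), and GH2, at 0 to 0.8 TPM against 0.82 to 4.02 (-1.05), were lower in every PRC2-null sample but short of 3-fold. CGA and some placental genes were thus present while GCM1 and the listed PSG genes were at or near 0. Of 10 extravillous trophoblast genes, 9 were tested and 5 rose, among them ITGA1 (4.05), MMP2 (3.96), ITGA5 (3.03) and DIO2 (2.90). The other 4 tested, HLA-G (0.22), ASCL2 (0.38), PAPPA2 (1.23) and AOC1 (0.78), were not called.

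Of 16 amnion genes, 13 rose and 2, GABRP and CLDN10, fell, with a median difference of 4.57. BMP4 is in this list, and the study had already reported its rise after PRC2 loss. TBX3, WNT6 and ITGB6 passed the filter only through PRC2-null samples. IGFBP5 was at 302.5 to 1183.82 TPM in the PRC2-null samples and 0.19 to 1.74 in the retaining ones (8.27, adjusted p = 6.853e-10), and the matrix protein gene POSTN at 181.28 to 624.33 and 0.18 to 1.95 TPM (7.94, adjusted p = 3.04e-09). IGFBP3 differed by 7.19 and TBX3, a T-box factor, by 5.73. Summed over the list, the level was 257.13 to 559.03 TPM in the retaining samples and 2132.85 to 4517.5 TPM in the PRC2-null ones. GABRP alone was at 166.69 to 444.6 TPM in the retaining samples. IGFBP3 alone was at 374.47 to 2515.03 TPM in the PRC2-null ones, so these sums follow a few genes in large part. Mesenchymal cells also express IGFBP3, IGFBP5 and POSTN.

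Lists of other tissues that use the same genes were read in the same way, beside 13.5% of all genes tested that rose and a median of 0.29. Of 20 genes of stratified and surface epithelium, 17 were tested and 7 rose, KRT17 (5.22), COL17A1 (3.94), DSC3 (3.66) and GRHL3 (3.15) the most, the median was 1.21 and the list's summed level was 364.3 to 482.11 TPM in the retaining and 737.03 to 1323.69 TPM in the PRC2-null samples. EPCAM, which was not called, alone was at 158.22 to 279.35 TPM in the retaining and 222.82 to 563.79 TPM in the PRC2-null samples. Of 12 genes of posterior mesoderm and hindgut, where CDX2 also acts, 11 were tested and 7 rose, with CDH2 (3.55), LGR5 (3.54), CDH17 (3.05) and CDX1 (2.97) the most, the median was 1.90 and the sum was 22.53 to 29.53 TPM against 205.29 to 586.28 TPM. CDH2 alone was at 10.28 to 21.35 TPM against 68.24 to 555.84 TPM, so that sum follows CDH2 in large part. CDX4 (-0.96) and TBX6 (-0.92) were lower and MSGN1 (0.70) and FGF8 (0.49) higher without being called. Of 12 neural crest genes, 10 were tested, SNAI2 (4.70) and SOX9 (3.27) rose, FOXD3 (-3.69) was among those that fell, 6 were not called, the median was 0.10, under that of all genes, and the sum was 108.5 to 220.66 TPM against 89.65 to 291.95 TPM. In each of these 3 lists no gene was listed at 0 in every PRC2-null sample. The part of such cells in the values of CDX2, TP63, TFAP2A and TFAP2B was not tested. All 12 pluripotency genes fell, POU5F1 from 2428.15 to 3456.09 TPM to 3.62 to 149.79 TPM (-6.38, adjusted p = 4.299e-10).

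**Figure D4:**
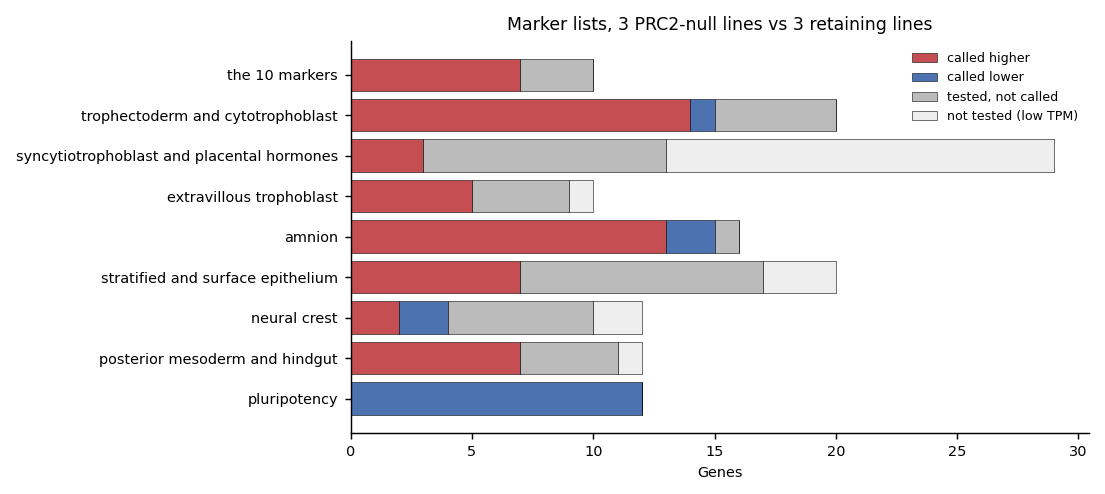
Number of genes (horizontal axis) in the 10 markers and 8 marker lists (vertical axis) that were called higher (red), called lower (blue), tested but not called (grey) or too low to be tested (pale) in the 3 PRC2-null lines against the 3 retaining lines. The 13 higher genes of 16 in the amnion list and the 16 untested genes of 29 in the syncytiotrophoblast list stand out, and all 12 pluripotency genes were lower.

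For each member that reached 5 TPM in any of the 12 samples, the 3 genes whose log2(TPM + 1) was most like it were found by Pearson's r over those 12 samples, as a description only, since the points share lines and the split between the 2 groups. TFAP2A was most like TBX3 of the amnion list (r = 0.998), TRIM55 (0.998) and FLRT3 (0.997). GATA3 was most like TGM2 (0.996), GATA4 (0.995), the factor of endoderm and heart, and SBSPON (0.995). VGLL1 and TP63 had ERP27 and BMP5 as their nearest pair, with r from 0.993 to 0.997, followed by HOXA13 for VGLL1 and KRT23 of the trophectoderm list for TP63. CDX2 was nearest to ODAM (0.987), the hedgehog ligand gene IHH (0.985) and S100A14 (0.984), CGA to RP11-394O4.5 (0.983), NR0B2 (0.979) and VWA5B2 (0.974), and KRT7 to FLJ16779 (0.992), PALMD (0.992) and RP11-597D13.9 (0.989). TFAP2C had the weakest likeness, 0.908 to RP11-398H6.1, 0.899 to RP11-234K24.3 and 0.889 to NUDT2.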

How the data were processed

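RNA-seq of 19 H1 samples was analysed. Per the study's methods, the authors sequenced TruSeq libraries, which do not mark strand, and mapped reads with Bowtie2 and RSEM to a GRCh38 mRNA reference. The authors deposited TPM per gene. They also describe EDASeq, and whether it touched these TPM is not given in the sources used here. The TPM keep no read depth, so precision rests on replicates. With TPM the unit of the files used here, the edgeR test that the authors describe was not run, and its thresholds were kept. Genes were joined by Ensembl identifier (33382). Values were log2(TPM + 1), genes at 1 TPM or more in at least 2 of 12 samples were kept (19100), and limma 3.58.1 in R 4.3.3 was fitted with a mean per line (eBayes, trend and robust), tested on simulated data, and adjusted by Benjamini-Hochberg over all genes, with calls at 1% and 3-fold. Differences understate changes of low genes. Days have 1 sample each and no test. Named genes are all 10 members, the targeted genes, at most 4 called genes of largest difference per list and the 3 most like genes of a member. GCM1, the hormone genes listed at 0 and the list genes that fell or were not called are named beyond that rule, after their values were seen. 1 gene of the neural crest list is not reported here. Members and lists were chosen with earlier results of these data known. Alternatives were another pseudocount, no filter, a replicate block, an FDR of 5% without fold, median-ratio scaling, smaller fits, other references and leaving out each sample or line. Python 3.11.15, numpy, pandas and matplotlib were also used.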

Additional observations from a re-analysis of the deposited data

Results flagged for a closer look

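6 results stood out by the set rules. In the 6 PRC2-null samples, GATA3 in EZH2-/-/EZH1-/- replicate 1 (36.43 TPM) lay apart from the others, with a gap to its neighbour of 0.7737 of the group's range on the log2(TPM + 1) scale, over Dixon's critical value for 6 samples. In the 6 retaining samples, CGA in EZH2-/- replicate 1 (0.21 TPM) lay apart with a gap of 1, the whole range, since the other 5 were listed at 0. For 6 independent normal values, chance flags about 1 in 20 groups by this measure. These samples are pairs from lines, and the 5 CGA values are tied, so that rate is only a guide. Each of the 10 members was checked in both groups.

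The other 4 are members whose difference from WT H1 was not the same in 2 PRC2-null lines, by limma's test of the difference between those lines. TFAP2B and ELF5 passed the filter only through the SUZ12-/- samples, so for them the filter itself asked for a difference. TFAP2B was higher in SUZ12-/- H1 than in EED-/- H1 by 2.05 and than in EZH2-/-/EZH1-/- H1 by 1.76 on the log2(TPM + 1) scale. ELF5 was higher in SUZ12-/- than in EED-/- H1 by 1.69. KRT7 went the other way, at -2.57 for SUZ12-/- against EED-/- H1, and both samples of each line showed each of these directions.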

How the results depend on the processing

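Of 169 recomputed counts of called members, 151 stayed within 1.5 times the value reported, and of 725 recomputed differences of single members 684 kept their direction and their side of the threshold. With a pseudocount of 0.1, the SUZ12-/- against EZH2-/-/EZH1-/- count was 0 and the day 28 count 9. At an FDR of 5% without a fold limit, the counts were 6 for SUZ12-/- against EED-/-, 1 for EZH2-/-/EZH1-/- against EED-/- and 4 for SUZ12-/- against EZH2-/-/EZH1-/- H1. The fit of EZH2-/-/EZH1-/- and WT H1 alone gave 4, with fewer samples. For these recomputed counts the share of all genes called is not given here, so they are not a result about the members. Days 8, 12 and 16 in place of day 28, an alternative chosen after seeing the data, gave 3, 2 and 1. TFAP2C turned to -0.0607 (PRC2-null against retaining) and -0.0503 (EED-/- against WT H1) under median-ratio scaling and to -0.2557 without the EZH2-/-/EZH1-/- line, and the cause was not tested.

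Leaving out 1 sample gave 3 to 5 members for EED-/- against WT H1 (3 without WT H1 replicate 1, WT H1 replicate 2 or EED-/- replicate 2), 6 to 9 for SUZ12-/- against WT H1, 6 to 7 for EZH2-/-/EZH1-/- against WT H1 and for PRC2-null against retaining lines, 0 for each of the 2 other lines against WT H1, 1 to 4 for SUZ12-/- against EED-/- H1 (1 without either SUZ12-/- sample), 0 to 1 for EZH2-/-/EZH1-/- against EED-/- H1 (1 without EZH2-/-/EZH1-/- replicate 1) and 0 to 3 for SUZ12-/- against EZH2-/-/EZH1-/- H1 (0 without either SUZ12-/- sample, 3 without EZH2-/-/EZH1-/- replicate 1). A line left with 1 sample is assumed to vary like the others. ELF5 in EED-/- H1 had a difference of 0 without replicate 2.

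With the replicate block, the counts were the same as without it in all 9 comparisons (7 for PRC2-null against retaining lines), and no call of a member changed. Samples with the same number did not deviate together, with a mean correlation of -0.0027 over 15 pairs of lines (-0.1214 to 0.2181, 1 over 0.1), so the numbers are names only.

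The depth behind the TPM is unknown, and members under about 1 TPM, such as ELF5 and TFAP2B outside SUZ12-/- H1, rest on an unknown number of reads. 2 samples a line, 1 sample a day and lines that set the groups limit what the tests can say of PRC2 loss itself.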

Other observations

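SUZ12-/- H1 differed from the other PRC2-null lines in further placental and amnion genes, in both directions. Against EED-/- H1, 2 of 9 tested extravillous trophoblast genes were higher and 2 lower, 3 of 16 amnion genes higher and 1 lower, and 3 of 11 posterior mesoderm and hindgut genes higher and 1 lower, beside 6.12% of all genes in either direction (4.46% against EZH2-/-/EZH1-/- H1). Of trophectoderm and cytotrophoblast genes 2 of 20 were higher, and of tested syncytiotrophoblast genes 2 of 13, with none lower. Against EZH2-/-/EZH1-/- H1 the counts for these last lists were 1 of 20 and 3 of 13 higher, with none lower. The genes named here were chosen after their values were seen. KISS1 was at 27.44 and 30.87 TPM in SUZ12-/- H1, at 3.27 and 2.38 in EED-/- H1 and at 2.17 and 5.85 in EZH2-/-/EZH1-/- H1, and limma gave differences of 2.99 (adjusted p = 0.0008957) and 2.69 (adjusted p = 0.002175). CRH, the corticotropin-releasing hormone gene that placenta also expresses, was at 8.48 and 9.69 TPM in SUZ12-/- H1 and at 0.53 to 1.1 TPM in the other 4 PRC2-null samples (2.45, adjusted p = 0.000129, and 2.49, adjusted p = 0.0001293). HLA-G, a class I gene of extravillous trophoblast, was at 21.82 and 20.53 TPM in SUZ12-/- H1 and at 1.53 to 7.31 in the other 4, with 4.06 to 4.57 TPM in WT H1 (2.27, adjusted p = 0.004902, and 2.42, adjusted p = 0.004449). VTCN1 was at 34.38 and 31.23 TPM against 2.75 to 6.46 (2.67, adjusted p = 0.0003167, and 2.40, adjusted p = 0.0007917). DIO2, an extravillous trophoblast gene, was lower, at 1.92 and 1.57 TPM against 7.62 to 27.05 in the other 4 (-2.10, adjusted p = 0.008121, against EED-/- H1, and adjusted p = 0.004047 against EZH2-/-/EZH1-/- H1). MMP2 (-1.66, adjusted p = 0.002351) and the amnion gene ITGB6 (-1.65, adjusted p = 0.002178) were lower than in EED-/- H1.

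GABRP, used as an amnion marker, was at 245.64 and 288.46 TPM in WT H1 cells, at 233.94 and 238.42 in SUZ12-/- H1, at 12 and 9.98 in EED-/- H1 and at 37.7 and 2.23 in EZH2-/-/EZH1-/- H1. In the same SUZ12-/- samples the hindgut cadherin gene CDH17 was at 81.63 and 87.02 TPM and CDX1 at 21.91 and 20.94 TPM, against 0.7 to 7.08 and 2.82 to 6.91 TPM in the other 4 PRC2-null samples. CDH2 of the same list went the other way, at 72.55 and 68.24 TPM against 204.42 to 555.84. The part of each cell type was not tested. CDX2 itself did not pass between SUZ12-/- and EED-/- H1 (0.62, interval -0.49 to 1.74) or between SUZ12-/- and EZH2-/-/EZH1-/- H1 (-0.35, interval -1.46 to 0.77).

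HAND1 was at 0.13 TPM with DOX, at 0.37, 0.41 and 1.07 on days 8, 12 and 16, and at 469.61, 121.6 and 11.06 TPM on days 20, 24 and 28, so its highest day was that of GATA3 and CDX2 and also of the mesoderm genes T, MSGN1 and TBX6. FGF8, GATA5 and CDH2 of the posterior mesoderm and hindgut list were highest on other days. KISS1 and HSD3B1 stayed at or under 1.08 and 0.21 TPM on all 6 days.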
